A study of Mus musculus with 12 samples.

Results

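The comparison set 3 libraries taken 7 weeks after an injection of α-synuclein fibrils against 3 libraries taken 7 weeks after saline. These are 6 of the 12 libraries of the series, chosen by treatment and time alone, and the other 6 were taken at 12 weeks. All mice were C57BL/6, injected bilaterally into the substantia nigra. The synuclein group received preformed fibrils of the G51D form of α-synuclein, 20 µg at 5 µg/µL, and the saline group the vehicle. At 7 weeks the midbrain was dissected, and cells positive for hKO1, the fluorescent protein used to mark dopaminergic neurons, were sorted by flow cytometry for RNA extraction. The promoter that drives hKO1, and the age and sex of the mice, are not given in the sources used here. Both groups had the same injection route and the same reporter, so the fibrils are the labelled difference between them.

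α-Synuclein is a presynaptic protein that misfolds into amyloid fibrils in Parkinson's disease, where the dopaminergic neurons of the substantia nigra are lost. Preformed fibrils injected into brain can be taken up by neurons and template the misfolding of the neurons' own α-synuclein. Protein folding in the endoplasmic reticulum, the proteasome, autophagy and lysosomes, mitochondria and microglia have all been studied as parts of the response.

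No single gene separated the groups beyond the spread between libraries. edgeR's quasi-likelihood test called 0 of 17380 genes at an adjusted p under 0.05, which is 0.0% of the genes tested, and DESeq2 and limma-voom also called 0. At an unadjusted p under 0.05 there were 285 genes (1.64%), of which 175 (1.01%) lay higher after synuclein and 110 (0.633%) lower. DESeq2 had 402 genes at that level and limma-voom 287. The split moved with the scaling of the libraries, to 214 higher and 78 lower with upper quartile scaling and to 239 and 65 with library totals. The 3 synuclein values lay above all 3 saline values for 817 genes (4.7%) and below them for 652 (3.75%). Over all genes tested the median log2 fold was 0.01, with 8905 genes higher and 8475 lower. Standard errors of the log2 folds had a median of 0.53, and of 0.26 over the 2158 genes above a mean of 100 CPM (counts scaled to a common library total). An adjusted p of 1 from edgeR holds for every 7-week fold given below, so each is a measured value with its error and not a call. The labels leave unsaid whether the replicates came from different mice. The p-values therefore speak only of variation among these samples, part of which may be technical.

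The libraries were bulk RNA of a sort that held several cell types, and they differed from each other more than by treatment. They held 2506730 to 5533324 assigned fragments and 20032 to 20910 genes with a fragment. Pairs of libraries of one group had correlations of log2 CPM between 0.889 and 0.926, and pairs across the groups between 0.879 and 0.926. Oligodendrocyte markers summed to 30270, 20700 and 19210 CPM in saline replicates 1 to 3 and to 23780, 20280 and 24910 after synuclein. Endothelial markers summed to 24010, 33690 and 42270 CPM in saline and to 23210, 32950 and 25380 after synuclein. Dopaminergic markers summed to 2697, 1786 and 1659 CPM in saline and to 3181, 1858 and 892.9 after synuclein. Markers of the labelled neurons, of oligodendrocytes and of endothelium were thus present together in every library of 7 weeks. In such bulk samples, fewer cells of a type and less RNA per cell cannot be told apart.

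**Figure D1:**
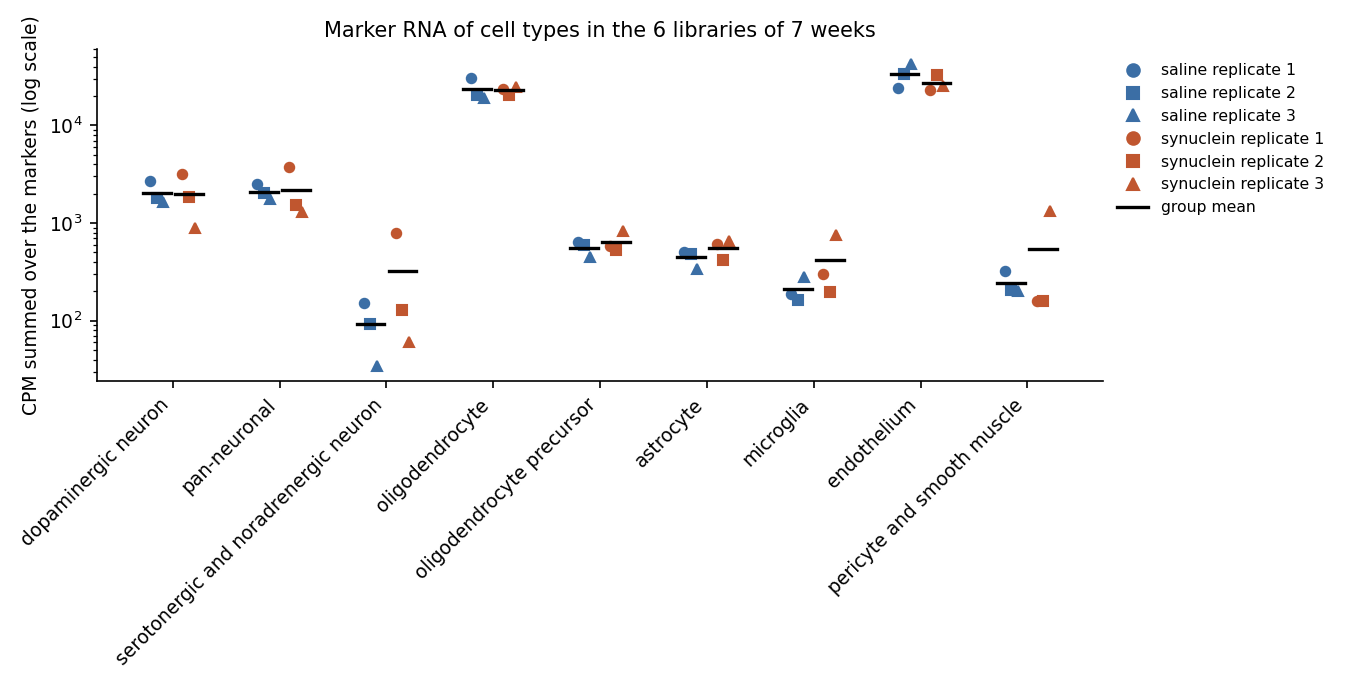
CPM summed over the markers of 9 cell types (log axis) in each of the 6 libraries of 7 weeks; symbols mark replicates and bars the mean of 3. Synuclein replicate 1 was highest in serotonergic and noradrenergic markers (783.3 CPM) and synuclein replicate 3 in microglia (759.4 CPM) and in pericyte and smooth muscle markers (1315 CPM).

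Single libraries stood apart in the content of other cells, and the libraries of the synuclein group did so in different ways. Synuclein replicate 1 held 783.3 CPM of serotonergic and noradrenergic markers against 34.6 to 150.8 in the other libraries, with Tph2, the enzyme that starts serotonin synthesis in brain, at 503.6 CPM against 8.16 to 58.36. Synuclein replicate 3 held 1315 CPM of pericyte and smooth muscle markers against 159.1 to 319.7, and 759.4 CPM of microglia markers against 161.2 to 304.0. Saline replicate 3, the deepest library, held the top value for 11 of 16 endothelial markers. These differences are named again beside the gene groups they touch.

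Of the annotated genes that lay higher after synuclein without overlap, C1qtnf3 had the smallest p. C1qtnf3 encodes a secreted C1q and TNF related protein (chromosome 15, 10952332 to 10980162). It measured 0.30, 0.55 and 0.59 CPM in saline and 3.69, 9.88 and 4.08 after synuclein. All 3 synuclein libraries were above all saline libraries, at a log2 fold of 3.53 ± 0.89 (SE; unadjusted p = 0.000685). Rptor, which encodes raptor of the growth-regulating mTORC1 complex, measured 28.79, 31.25 and 28.90 CPM in saline and 50.36, 87.54 and 61.93 after synuclein, a log2 fold of 1.17 ± 0.34. The saline values of Rptor were close together, and the synuclein values were spread but all higher. Rptor shares its locus entry with 3 other genes in the deposited tables, so reads of an overlapping gene may be counted in it.

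Dab1, the adaptor of the reelin receptors in neurons, measured 9.498, 6.36 and 9.44 CPM in saline and 34.39, 32.17 and 14.46 after synuclein, a log2 fold of 1.68 ± 0.53. Lhfpl3, a gene of oligodendrocyte precursors, measured 7.42, 7.47 and 5.11 CPM in saline and 23.95, 17 and 27.07 after synuclein, a log2 fold of 1.75 ± 0.53. Sorcs1, a sorting receptor of neurons, measured 3.86, 6.91 and 5.70 CPM in saline and 12.90, 16.31 and 31.52 after synuclein, a log2 fold of 1.88 ± 0.64. These genes lay in a low range of expression and none overlapped between the groups. Adam21, a member of the ADAM metalloprotease family, was at a log2 fold of 1.95 ± 0.61. The tRNA deaminase subunit gene Adat3, which shares its locus entry with other genes, was at 1.80 ± 0.59, Etohd2 at 1.99 ± 0.58, Myadml2 at 1.89 ± 0.61 and the odorant receptor gene Olfr385 at 3.23 ± 1.08. Odorant receptors are a large family of similar genes, so reads may be split between its members.

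A pair of genes in this list was all but absent from the saline libraries. Agtr2, the type 2 receptor of angiotensin II, had 0, 0 and 1 fragments in saline and 15, 11 and 9 after synuclein. Per fragment of the libraries that is a ratio of 43.2 (95% exact binomial interval 7.27 to 1760, which covers counting error only). The odorant receptor gene Olfr159 had 0 fragments in every saline library and 9, 14 and 4 after synuclein, at least 11.1-fold higher against a floor of 3 fragments over the saline group.

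Among the annotated genes that lay lower after synuclein without overlap, Ier2 had the smallest p. Ier2 is an immediate early gene, switched on within minutes of a stimulus (chromosome 8, 84661331 to 84662852). It measured 118.1, 131.9 and 162.4 CPM in saline and 73.08, 90.06 and 66.38 after synuclein. The highest synuclein value was below the lowest saline value, at a log2 fold of −0.84 ± 0.26 (unadjusted p = 0.00452). Leaving out any 1 library of 7 weeks or changing the tool, scaling or filter kept the fold of Ier2 between −0.98 and −0.70. Since Ier2 was chosen for groups that do not overlap, leaving out 1 library could hardly turn its sign.

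Dll4 and Hey1, both of Notch signalling, were among the genes chosen for lying lower, and no list of Notch genes was examined. Dll4, a Notch ligand of endothelial tips (it shares its locus entry with 1 other gene), measured 80.73, 90.70 and 66.07 CPM in saline and 42.07, 42.04 and 40.79 after synuclein, a log2 fold of −0.93 ± 0.33. Hey1, a transcriptional repressor that Notch induces, measured 69.15, 81.85 and 104.2 CPM in saline and 48.21, 57.67 and 30.41 after synuclein, a log2 fold of −0.90 ± 0.32. Both genes are expressed in brain endothelium, whose summed markers lay between 24010 and 42270 CPM in saline and between 23210 and 32950 after synuclein, and the part of endothelial RNA in their values was not tested.

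Trex1, an exonuclease that clears DNA from the cytosol, measured 39.47, 50.61 and 29.49 CPM in saline and 19.96, 10.80 and 18.54 after synuclein, a log2 fold of −1.27 ± 0.44. Eif3l, a subunit of translation initiation factor 3, measured 134.5, 133.6 and 129.4 CPM in saline and 87.51, 99.48 and 56.36 after synuclein, a log2 fold of −0.71 ± 0.25. The saline values of Eif3l were nearly equal, and synuclein replicate 3 was the lowest library. Acot9, a mitochondrial acyl-CoA thioesterase, was at −1.01 ± 0.32, Rad17, which loads the DNA damage checkpoint clamp, at −1.08 ± 0.40, Rin3, an activator of the endocytic GTPase Rab5, at −0.86 ± 0.30, and Tmbim4 at −0.59 ± 0.21. Sft2d2 was at −0.70 ± 0.26 and the protease gene Prss23 at −0.87 ± 0.30, or −0.50 without saline replicate 3. Pi16 was at −3.12 ± 1.0, but it measured 58.62 CPM in saline replicate 2 and 8.61 and 3.74 in the other saline libraries. Without that library its fold was −1.20.

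**Figure D2:**
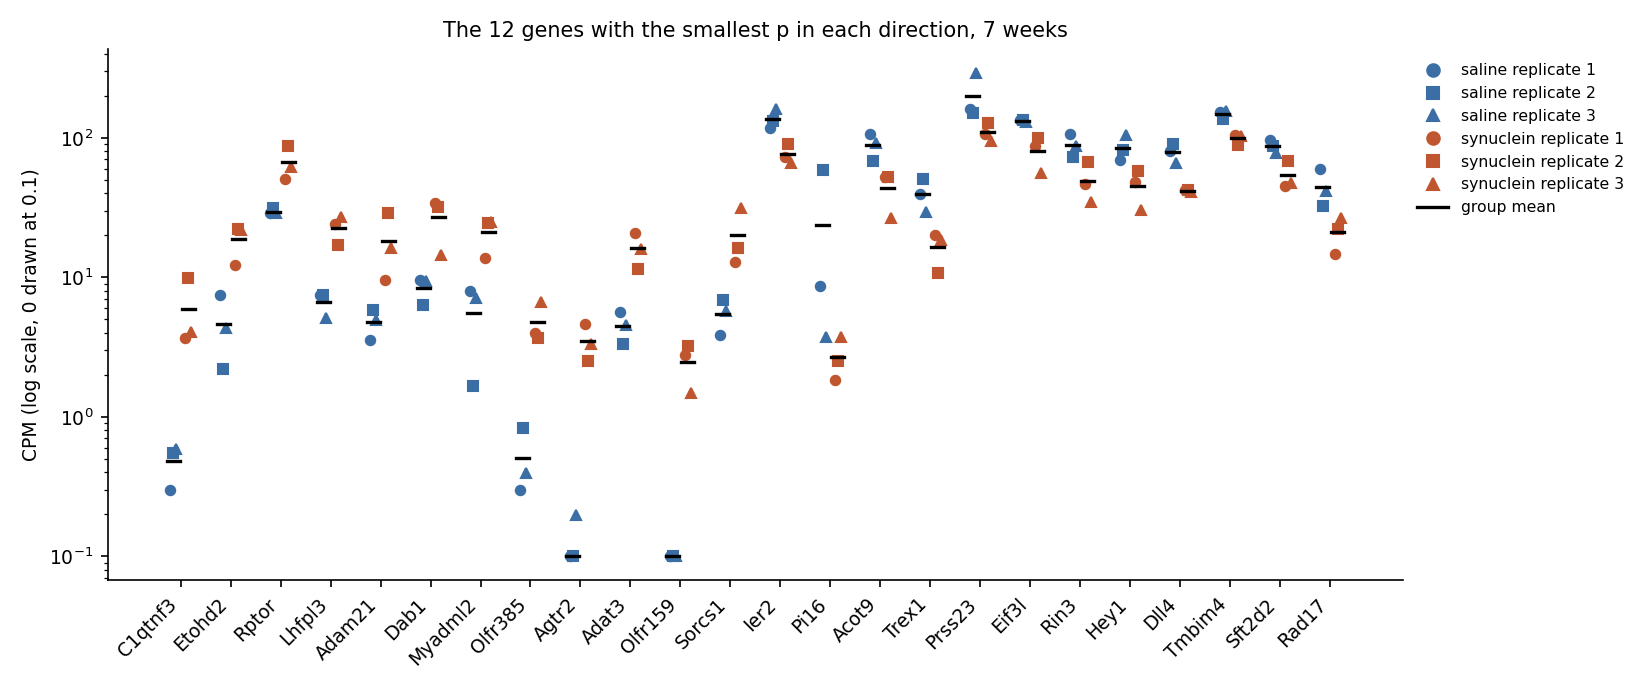
CPM (log axis, with 0 and means under 0.1 drawn at 0.1) of 12 genes in each direction. They had the smallest unadjusted p among annotated genes whose groups do not overlap. Symbols mark replicates and bars the mean of 3. The first 12 genes lie higher after synuclein and the last 12 lower, by the rule that chose them, and edgeR called none of them.

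Of the genes that make dopamine, Th and Ddc overlapped between the groups and Spr did not. Th, the rate-limiting enzyme (chromosome 7, 142892776 to 142899966), measured 711.4, 517.9 and 361.6 CPM in saline and 857.6, 501.8 and 232.9 after synuclein. The highest and the lowest library both belonged to the synuclein group, and the log2 fold was 0.00 ± 0.38. Ddc, which turns L-DOPA into dopamine and shares its locus entry with another gene, measured 233.0, 138.0 and 246.8 CPM in saline and 311.7, 202.0 and 91.22 after synuclein, a log2 fold of −0.03 ± 0.35. Spr, which makes the cofactor tetrahydrobiopterin, was the member without overlap, where 3.75% of all genes lay lower without overlap. It measured 62.03, 64.16 and 92.61 CPM in saline and 57.42, 51.69 and 37.08 after synuclein, a log2 fold of −0.58 ± 0.27. Gchfr, the feedback regulator of cofactor synthesis, was at 2.27 ± 1.11 and rested on synuclein replicate 1 (92.42 CPM against 2.95 to 16.03 in the other libraries), without which it was 0.31. Of the 9 synthesis genes 4 lay higher and 5 lower, with a median of −0.03 that turned to 0.02 with upper quartile scaling and 0.04 with library totals. It ran from −0.40 without synuclein replicate 1 to 0.31 without synuclein replicate 3, and was 0.16 without saline replicate 1 and 0.035 without synuclein replicate 2.

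Slc6a3, the plasma membrane dopamine transporter, measured 456.5, 439.7 and 358.6 CPM in saline and 637.7, 370.4 and 144.6 after synuclein. Here too the synuclein group held both the highest and the lowest library, and the log2 fold of −0.12 ± 0.42 became 0.26 without synuclein replicate 3. Slc18a2, which loads dopamine into vesicles, measured 232.7, 95.40 and 102.2 CPM in saline and 239.2, 123.8 and 70.46 after synuclein, a log2 fold of 0.01 ± 0.45. Drd2, the autoreceptor, was at 0.64 ± 0.70. Drd1, the receptor of neurons that dopamine reaches, had no overlap, where 4.7% of all genes lay higher without overlap. It measured 5.64, 10.51 and 6.29 CPM in saline and 15.35, 14.24 and 33.37 after synuclein, a log2 fold of 1.49 ± 0.63.

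Ratios to Th within a library were compared as well, since dopaminergic neurons make Th and its partners. How much other cells added to these genes was not tested. Synuclein replicate 1 held 783.3 CPM of serotonergic and noradrenergic markers. Slc6a3 per Th was 0.642, 0.849 and 0.992 in saline and 0.744, 0.738 and 0.621 after synuclein, a log2 difference of −0.22 ± 0.20 (SE; exact permutation p = 0.4, two-sided). Slc18a2 per Th was 0.327, 0.184 and 0.283 in saline and 0.279, 0.247 and 0.303 after synuclein, a log2 difference of 0.10 ± 0.26 (exact permutation p = 0.9). Groups of 3 cannot reach a p below 0.1 in this test, and over the 6 ratios computed (among them Ddc, Slc6a3, Slc18a2, Nr4a2 and Sncg) every Benjamini-Hochberg value was 1. The ratios of both groups overlapped for Ddc, Slc6a3, Slc18a2, Nr4a2 and Sncg.

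Transcription factors that hold the identity of these neurons had a median of −0.01 over 11 tested, with 5 higher and 6 lower, and turned to 0.02 with upper quartile scaling and 0.05 with library totals. Nr4a2 measured 74.20, 38.44 and 47.39 CPM in saline and 82.29, 41.59 and 33.74 after synuclein, a log2 fold of −0.02 ± 0.44. Pitx3, which shares its locus entry with another gene, had 2.49 to 16.03 CPM in the saline libraries against 1.48 to 18.73 after synuclein, a log2 fold of −0.01 ± 1.07. Synuclein replicate 1 was the highest library for 6 of the 11 factors tested. Without it the median was −0.33, and without saline replicate 1 it was 0.52. Without synuclein replicate 2 it was 0.11 and without synuclein replicate 3 it was 0.41.

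Of the enzymes that break dopamine down, Maob, the monoamine oxidase of glia and serotonergic neurons, measured 29.98, 48.12 and 73.54 CPM in saline and 135.1, 58.36 and 86.03 after synuclein, a log2 fold of 0.88 ± 0.41. Synuclein replicate 1, the library rich in serotonergic RNA, was its highest, and the part of that RNA was not tested. Aldh1a1, which clears the aldehyde of dopamine in ventral nigral neurons, was at −0.37 ± 0.51.

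**Figure D3:**
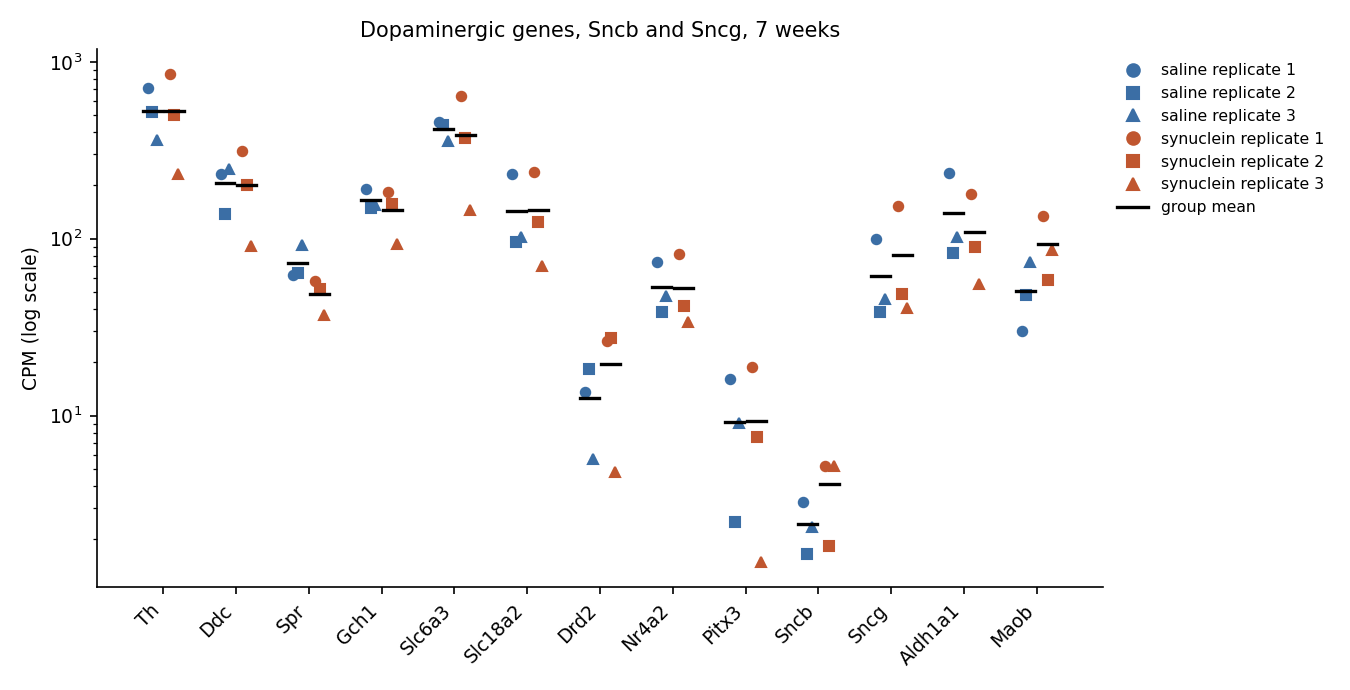
CPM (log axis) of dopamine genes, Sncb, Sncg and breakdown enzymes in each library of 7 weeks; symbols mark replicates and bars the mean of 3. For Th and Slc6a3 the highest and the lowest of the 6 libraries are both in the synuclein group.

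Sncb, β-synuclein, was at 0.74 ± 0.83 at levels of 1.66 to 5.22 CPM. Sncg, high in dopaminergic neurons, measured 100.3, 38.44 and 45.62 CPM in saline and 152.3, 48.94 and 40.42 after synuclein, a log2 fold of 0.39 ± 0.46 that was −0.46 without synuclein replicate 1.

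Genes mutated in inherited parkinsonism lay 11 higher and 11 lower of 22. Pink1 and Park2 were the 2 members without overlap, both higher, where 4.7% of all genes lay so, and both share their locus entry with another gene. Pink1, a kinase that marks damaged mitochondria, measured 249.6, 253.9 and 301.8 CPM in saline and 312.9, 342.1 and 314.1 after synuclein, a log2 fold of 0.27 ± 0.23. Park2, the ubiquitin ligase parkin that Pink1 activates, measured 10.39, 9.40 and 7.28 CPM in saline and 18.12, 10.80 and 18.54 after synuclein, a log2 fold of 0.82 ± 0.65. The risk gene Lrrk2, a kinase, was at 0.18 ± 0.47.

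Of 21 genes for uptake and release of fibrils, 11 lay higher and 10 lower, and none was free of overlap. Lag3, a fibril receptor, measured 6.23, 8.30 and 6.10 CPM in saline and 6.76, 4.14 and 5.93 after synuclein, a log2 fold of −0.31 ± 0.77, and Aplp1, its partner in fibril binding, was at −0.03 ± 0.27. Among kinases that phosphorylate α-synuclein, Grk5 measured 4.16, 6.08 and 8.46 CPM in saline and 13.82, 21.14 and 11.12 after synuclein, a log2 fold of 1.30 ± 0.58. Abl1, the tyrosine kinase c-Abl, measured 35.91, 42.59 and 35.59 CPM in saline and 46.98, 60.43 and 66.38 after synuclein, a log2 fold of 0.61 ± 0.49. Csnk1d, casein kinase 1δ, lay lower without overlap, at −0.37 ± 0.25. Of the 13 kinase and phosphatase genes 6 lay higher and 7 lower. Over all genes 4.7% lay higher and 3.75% lower without overlap.

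Both chaperone lists, that of the endoplasmic reticulum and that of cytosol and mitochondria, held more genes lower than higher after synuclein. In the unfolded protein response list 17 of 25 genes were lower, with a median log2 fold of −0.21 against 0.01 over all genes, and 3 members had all synuclein values below all saline values where 3.75% of genes did. Hspa5, the chaperone BiP that senses unfolded protein, measured 420.9, 470.7 and 343.3 CPM in saline and 302.1, 253.0 and 259.9 after synuclein, a log2 fold of −0.60 ± 0.29 (unadjusted p = 0.055). Hsp90b1, the endoplasmic reticulum form of HSP90, measured 380.5, 504.9 and 362.2 CPM in saline and 289.9, 338.7 and 269.2 after synuclein, a log2 fold of −0.48 ± 0.23. The groups did not overlap for either gene. Pdia6, a disulfide isomerase whose locus entry holds another gene, measured 108.6, 240.0 and 182.3 CPM in saline and 117.0, 78.58 and 97.53 after synuclein, a log2 fold of −0.86 ± 0.29 (unadjusted p = 0.0081). Sel1l, part of the complex that sends misfolded protein for degradation, lay lower without overlap at −0.30 ± 0.26. Pdia3 and Pdia4 (which shares its locus entry) were at −0.49 ± 0.26 and −0.60 ± 0.32. Saline replicate 2 held the highest value of 10 of the 25 genes, and without it the list's median was −0.17 and the folds were −0.60 for Pdia6, −0.30 for Pdia3 and −0.19 for Pdia4. Over all alternatives the median ran from −0.26 to −0.12.

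These genes are classic targets of the endoplasmic reticulum stress element, a promoter sequence spelled CCAAT, then 9 bases of any kind, then CCACG. It was searched on both strands in the 250 bases before the start of 27025 genes in RefSeq (GRCm38.p6), and 35 genes (0.13%) held a match. Of the 25 unfolded protein response genes, 21 had a promoter entry, and 9 of them held a match, which is shown because the 3 leading genes above, Hspa5, Hsp90b1 and Pdia6, are among them. Each site is read on the strand where the element has these letters, with the element in capitals and 5 bases on either side. The coordinates are of GRCm38.p6, and the strand is that of the site. For Hsp90b1 and Dnajc3 the gene start used did not match a transcript start in the GENCODE annotation. For the other genes shown it did.
Hspa5 (chr2:34772020-34772048, + strand): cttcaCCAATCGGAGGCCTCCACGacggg
Hsp90b1 upstream site (chr10:86705633-86705661, − strand): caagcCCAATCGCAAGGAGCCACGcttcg
Hsp90b1 downstream site (chr10:86705528-86705556, + strand): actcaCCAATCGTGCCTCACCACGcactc
Pdia6 (chr12:17266486-17266514, + strand): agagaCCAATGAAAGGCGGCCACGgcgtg
Calr (chr8:84847070-84847098, + strand): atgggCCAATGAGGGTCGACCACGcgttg
Canx (chr11:50325795-50325823, − strand): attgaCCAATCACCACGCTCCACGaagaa
Dnajc3 (chr14:118937822-118937850, + strand): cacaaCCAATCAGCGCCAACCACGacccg
Creld2 (chr15:88819515-88819543, − strand): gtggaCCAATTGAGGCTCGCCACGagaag
Derl3 (chr10:75893237-75893265, − strand): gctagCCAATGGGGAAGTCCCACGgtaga
Syvn1 (chr19:6046527-6046555, + strand): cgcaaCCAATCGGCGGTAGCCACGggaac

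A match was not tied to a lower fold in every gene. Calr and Canx, lectin chaperones of glycoproteins, were at −0.37 ± 0.27 and −0.23 ± 0.23, and Dnajc3, a co-chaperone of BiP, at −0.16 ± 0.33. Creld2 was at 0.00 ± 0.37, Derl3 at −0.16 ± 1.38 on values of at most 3.86 CPM, and Syvn1, a ubiquitin ligase of the endoplasmic reticulum, at 0.39 ± 0.40. A match is a description of the promoter letters and says nothing of a factor bound there.

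Cytosolic and mitochondrial heat-shock genes lay 18 lower and 4 higher of 22, with a median of −0.28. Hsp90aa1, a stress-inducible HSP90, measured 740.8, 841.2 and 427.7 CPM in saline and 616.5, 363.7 and 345.2 after synuclein, a log2 fold of −0.60 ± 0.32. Its groups overlapped, as did those of Hspb1, a small heat-shock protein of vessels and astrocytes, at −0.71 ± 0.37. Hspb1 measured 1226 CPM in saline replicate 2 against 385.8 and 676.0 in the other saline libraries, and was −0.21 without it. Hspa1a, an inducible HSP70, lay lower without overlap at −0.67 ± 0.83, and Bag3, its co-chaperone in selective autophagy, higher without overlap at 0.25 ± 0.32. Over all genes 4.7% lay higher and 3.75% lower without overlap. Hspa8, the constitutive HSP70, was at −0.10 ± 0.28. Without synuclein replicate 3 the list's median was −0.08, with 7 higher and 15 lower, and without saline replicate 2 it was −0.14.

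Of the degradation pathways, lysosomal and autophagy genes lay near the median of all genes, while most proteasome subunits lay lower. Of 31 proteasome subunits 25 lay lower, with a median of −0.17 and 3 free of overlap (Psma1, Psmc6 and Psmd7), beside 3.75% of all genes. Psmd7 of the regulatory particle measured 149.3, 170.1 and 251.7 CPM in saline and 136.3, 130.5 and 133.1 after synuclein, a log2 fold of −0.51 ± 0.26. Saline replicate 3 was the highest library for 23 of the 31 subunits, and without it the median was 0.04, with 18 higher and 13 lower. Lysosomal genes lay 13 higher and 19 lower with a median of −0.03, which was 0.02 with upper quartile scaling and 0.05 with library totals. Leaving out a single library turned it to 0.04 without saline replicate 1, 0.12 without saline replicate 3, 0.00 without synuclein replicate 1 and 0.08 without synuclein replicate 2.

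Autophagy genes split by step, with 12 higher and 14 lower of 26 and a median of −0.02 that was 0.03 with upper quartile scaling and 0.04 with library totals. Atg7, the enzyme that activates the conjugation of LC3, measured 28.79, 33.18 and 34.80 CPM in saline and 50.97, 51.46 and 42.64 after synuclein, a log2 fold of 0.58 ± 0.28. Atg9a, a lipid scramblase that seeds the autophagosome membrane, measured 69.15, 73.00 and 63.31 CPM in saline and 78.30, 107.3 and 88.26 after synuclein, a log2 fold of 0.41 ± 0.24. Gabarap, an LC3 relative, lay lower at 264.7, 229.8 and 273.5 CPM in saline and 220.5, 205.6 and 178.7 after synuclein, a log2 fold of −0.34 ± 0.21. These 3 and Atg3 at −0.23 ± 0.24 were the 4 members without overlap, 2 in each direction, beside 4.7% of all genes higher and 3.75% lower. The autophagy median turned positive without saline replicate 3 (0.08), synuclein replicate 1 (0.05) or synuclein replicate 3 (0.05).

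Genes of respiration and translation lay lower in small, even steps. Of 37 nuclear genes of complex I, 33 were lower with a median of −0.15, and of 38 genes of complexes II to V, 35 were lower with a median of −0.17. Of 65 ribosomal protein genes 61 were lower, with a median of −0.18 and 10 without overlap, where 3.75% of all genes lay lower without overlap. Rps7 measured 154.6, 189.1 and 191.1 CPM in saline and 141.5, 126.1 and 130.5 after synuclein, a log2 fold of −0.43 ± 0.23. Rps4x measured 313.4, 323.3 and 340.0 CPM in saline and 249.9, 279.4 and 232.9 after synuclein, a log2 fold of −0.36 ± 0.21. Both are part of the small ribosomal subunit, and neither overlapped between the groups. Saline replicate 3 was the highest library for 49 ribosomal, 22 complex I and 24 other respiratory genes. Without it the medians were −0.08, −0.05 and −0.06, with 44 of 65, 25 of 37 and 22 of 38 genes lower. The mitochondrially encoded genes are not analysed here.

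Antioxidant genes lay 19 lower and 8 higher of 27, with a median of −0.12 that was −0.01 without saline replicate 3. Hmox1, the heme oxygenase induced by oxidants, measured 23.45, 17.14 and 28.12 CPM in saline and 11.97, 16.77 and 6.68 after synuclein, a log2 fold of −0.96 ± 0.48. Sod1, the cytosolic superoxide dismutase, measured 184.9, 171.4 and 224.5 CPM in saline and 163.0, 161.7 and 150.9 after synuclein, a log2 fold of −0.29 ± 0.23. Gss, which completes glutathione, was at −0.53 ± 0.32. These 3 were the members without overlap, where 3.75% of all genes lay lower without overlap. Steap3, an iron reductase, lay lower without overlap at −1.0 ± 0.57, in an iron list with 12 of 15 genes lower and a median of −0.18, which was −0.05 with 9 lower without saline replicate 3 and −0.33 without saline replicate 1.

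Microglia markers lay higher after synuclein for 15 of 17 genes, with a median of 0.95, but no member was free of overlap. C1qb of the complement C1 complex measured 20.48, 11.89 and 45.22 CPM in saline and 38.07, 37.22 and 142.0 after synuclein, a log2 fold of 1.48 ± 0.60. Tyrobp, the signalling adaptor of microglial receptors, measured 11.58, 9.40 and 7.47 CPM in saline and 22.41, 6.66 and 61.56 after synuclein, a log2 fold of 1.66 ± 0.75. Synuclein replicate 3 was the highest library for 13 of the 17 markers tested, and synuclein replicate 2 lay among the saline libraries. Without synuclein replicate 3 the median was 0.28, C1qb was at 0.53 and Tyrobp at 0.60. The activation genes of microglia, 16 of 18 higher with a median of 0.34, turned to −0.09 without that library.

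Of 17 complement genes tested 11 lay higher and 6 lower, with a median of 0.77. The lowest was Serping1 at −1.24. Synuclein replicate 3 was the highest library for 8 of the 17, and without it the median was 0.31. The members without overlap were 2, both higher, beside 4.7% of all genes. C4b, the complement C4 gene of glia, measured 6.83, 11.61 and 9.05 CPM in saline and 13.20, 28.95 and 13.35 after synuclein, a log2 fold of 1.01 ± 0.43. C2, its partner in the classical convertase, was at 1.90 ± 1.08. In these 2 genes the highest library was not the same one, being synuclein replicate 2 for C4b and replicate 3 for C2. The 7 genes of class II antigen presentation all lay higher, with a median of 0.58. Ciita, the activator of that gene set, was the member without overlap, at 8.61, 15.21 and 12.78 CPM in saline and 26.10, 18.15 and 30.78 after synuclein, a log2 fold of 1.02 ± 0.53. Synuclein replicate 1 was the highest library for 6 of the 7, and without it the median was 0.18.

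Interferon-stimulated genes lay the other way, with 19 of 24 lower and a median of −0.19. Without saline replicate 3 it was −0.10 with 15 lower, without synuclein replicate 3 it was −0.12, and without saline replicate 1 it was −0.30. Isg15, the ubiquitin-like interferon product, measured 27.31, 29.31 and 34.61 CPM in saline and 21.19, 23.21 and 17.80 after synuclein, a log2 fold of −0.56 ± 0.40. Irf7, a transcription factor of the same response, lay higher without overlap, at 52.83, 99.00 and 72.16 CPM in saline and 103.8, 105.0 and 126.8 after synuclein, a log2 fold of 0.58 ± 0.35. The class I antigen genes had a median of 0.13, which was −0.09 without saline replicate 1.

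Astrocyte markers lay higher for 10 of 15 genes and lower for 5, with a median of 0.25. It was 0.16 without synuclein replicate 1, 0.45 without saline replicate 2 and 0.625 without synuclein replicate 2. Synuclein replicate 3 was the highest library for 7 of the 15. Without it the median was 0.195, with 8 higher and 7 lower. Gjb6 was the lowest marker, at −1.04. Aqp4, the water channel of astrocyte endfeet, measured 7.12, 11.34 and 2.75 CPM in saline and 13.20, 16.08 and 20.77 after synuclein, a log2 fold of 1.23 ± 0.57. Sox9, a transcription factor of astrocytes, measured 4.45, 6.08 and 14.35 CPM in saline and 21.80, 20.22 and 24.10 after synuclein, a log2 fold of 1.4 ± 0.54. Neither gene overlapped between the groups, where 4.7% of all genes lay higher without overlap. Genes of reactive astrocytes lay lower for 10 of 16 with a median of −0.20, which was near 0 without saline replicate 2 (−0.004, 8 higher and 8 lower) or synuclein replicate 1 (−0.02) and −0.07 without saline replicate 1. Among them Gfap, the filament protein of reactive glia, was at −0.56 ± 0.58, Osmr, a cytokine receptor, at −0.70 ± 0.31, and Cd44 higher without overlap at 0.97 ± 0.51. Steap4 of that list had 0 fragments in each saline library and 3, 0 and 10 after synuclein, at least 5.35-fold higher against 3 fragments over the saline group.

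Cholesterol and myelin lipid synthesis lay higher for 18 of 25 genes with a median of 0.14, and 4 of the 25 had all synuclein values above all saline values where 4.7% of genes did. Dhcr7, the last enzyme of cholesterol synthesis, measured 19.89, 9.68 and 15.93 CPM in saline and 30.09, 27.11 and 37.82 after synuclein, a log2 fold of 1.06 ± 0.41. Sqle, squalene epoxidase, measured 35.62, 48.67 and 48.17 CPM in saline and 85.67, 67.09 and 51.17 after synuclein, a log2 fold of 0.62 ± 0.29. Mvd and Mvk of the mevalonate steps were at 1.0 ± 0.42 and 0.82 ± 0.62. Mbp, a structural protein of myelin, was at 0.11 ± 0.23. Synuclein replicate 1 was the highest library for 12 of the 25, and without it the median was 0.03, with 13 higher and 12 lower. The sterol regulatory element TCACNCCAC was found in 331 promoters (1.22%), and of the 16 list members with a promoter entry only Hmgcs1 held it.

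**Figure D4:**
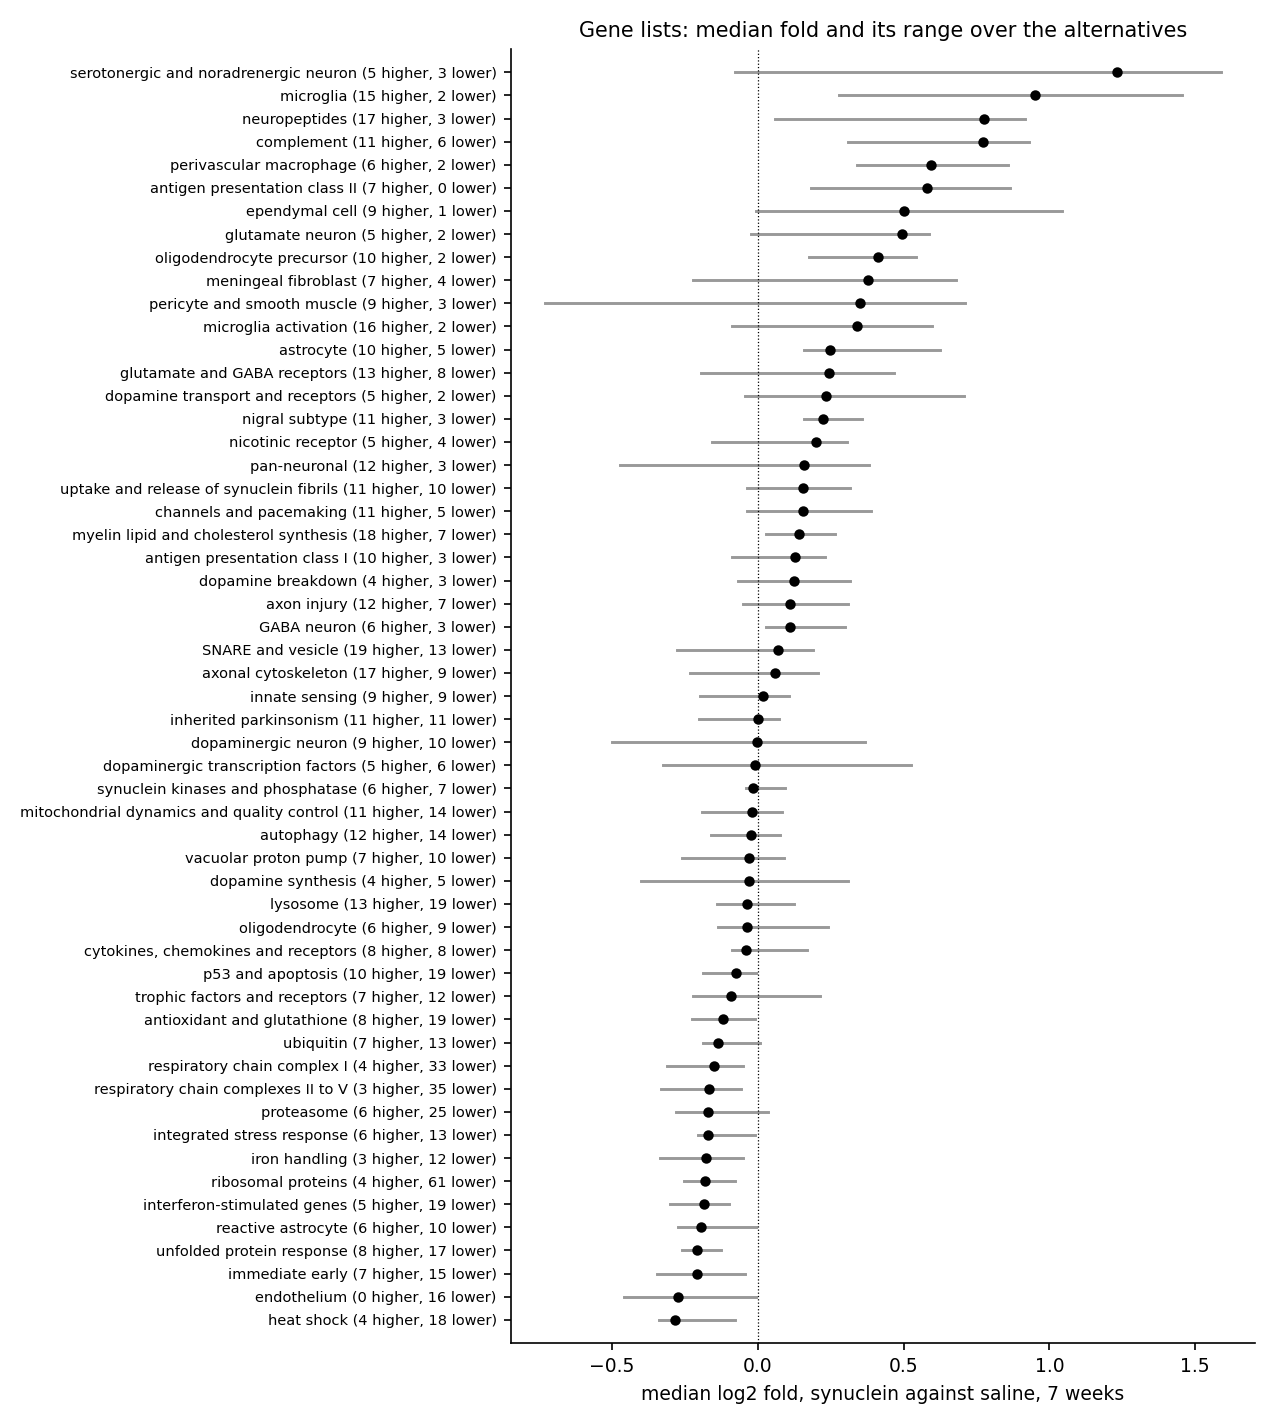
Median log2 fold of each gene list with at least 7 genes tested (black points, log2 axis), with the range of that median over 21 alternatives (grey lines) and the numbers of genes higher and lower. Chaperone, ribosomal and respiratory lists lie left of 0 and microglia, neuropeptide and complement lists right of it, and many grey lines cross 0.

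Neuropeptide genes lay higher for 17 of 20 tested with a median of 0.78. Chga, the granule protein chromogranin A, measured 26.12, 28.76 and 32.84 CPM in saline and 136.9, 55.37 and 25.59 after synuclein, a log2 fold of 1.31 ± 0.49. Scg3, another granin, measured 29.09, 21.02 and 18.48 CPM in saline and 43.91, 50.09 and 37.45 after synuclein, a log2 fold of 0.94 ± 0.47. Scg3 and Nts, the neurotensin precursor (1.79 ± 1.05 on values of at most 3.99 CPM), were the members without overlap. Over all genes 4.7% lay higher without overlap. Synuclein replicate 1, the library rich in serotonergic RNA, was the highest for 15 of the 20 genes tested. Without it the median was 0.06 with 10 higher and 10 lower. The same library was the highest for 26 of 32 SNARE and vesicle genes, whose median of 0.07 turned to −0.28 without it and to −0.03 without saline replicate 3.

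Of 22 immediate early genes tested, Ier2 included, 7 lay higher and 15 lower, with a median of −0.21 that was −0.06 without saline replicate 3 and −0.045 without synuclein replicate 3. Members without overlap lay on both sides, beside 4.7% of all genes higher and 3.75% lower without overlap. Egr2 and Fosl2 lay lower without overlap, at −1.32 ± 1.02 and −0.44 ± 0.43. Fos measured 22.26, 24.06 and 9.64 CPM in saline and 26.71, 34.46 and 45.24 after synuclein, higher without overlap at a log2 fold of 0.92 ± 0.67. Npas4, induced by neuronal activity, measured 3.56, 1.94 and 0.59 CPM in saline and 5.83, 4.83 and 5.93 after synuclein, a log2 fold of 1.45 ± 0.86. The p53 and apoptosis genes lay 10 higher and 19 lower with a median of −0.07, and Gadd45b, a stress-induced gene, was their member without overlap at −0.79 ± 0.57. Trophic factor and receptor genes lay 7 higher and 12 lower of 19 tested, with a median of −0.09. They ran from Fgf20 at −2.0 to Gdnf at 1.72. Ntrk3, the neurotrophin-3 receptor, lay higher without overlap. It measured 8.90, 11.06 and 9.24 CPM in saline and 22.11, 14.47 and 23.36 after synuclein, a log2 fold of 1.05 ± 0.45.

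Endothelial markers lay lower for 16 of 16 genes, with a median of −0.27 and no member without overlap. Cldn5, the tight-junction claudin of the blood-brain barrier, measured 1329, 1551 and 2002 CPM in saline and 1271, 1396 and 1250 after synuclein, a log2 fold of −0.32 ± 0.23. Ly6c1 was at −0.39 ± 0.29. Without saline replicate 3 the median was −0.01, with 8 higher and 8 lower. The contractile genes Acta2 and Tagln of smooth muscle (the second shares its locus entry with others) were at 2.58 ± 1.07 and 3.04 ± 1.23, and both rested on synuclein replicate 3, where Acta2 measured 469.1 CPM against 3.07 to 38.29 in the other libraries. Without that library Acta2 was at −1.86 and Tagln at −0.83, and the median of the pericyte and smooth muscle list went from 0.35 to −0.73.

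The 12-week libraries, which share no sample with those of 7 weeks, show whether the folds recurred. For the change in the fibril effect from 7 to 12 weeks 0 of 17380 genes (0.0%) passed in edgeR. Before adjustment 780 genes had an edgeR p below 0.05. Neither DESeq2 nor limma-voom called a gene for it. On log2(FPKM + 0.1) and on log2(FPKM + 1) limma called 1 gene each. Ier2 had a log2 fold of 0.79 at 12 weeks, a difference of 1.63 ± 0.37 from that at 7 weeks (unadjusted p = 0.000322). Hspa5 was at 0.75 at 12 weeks (difference 1.35, unadjusted p = 0.00423) and Hey1 at 0.46 (difference 1.37 ± 0.46). C1qtnf3 was at −0.51 and Adam21 at −1.28, with differences of −4.05 ± 1.15 and −3.23 ± 0.85. Of the 24 genes drawn in the plot of smallest p, 15 lay on the other side of 0 at 12 weeks and 9 on the same side, among them Lhfpl3 at 0.89, Agtr2 at 0.78, Dab1 at 0.28 and Trex1 at −0.24. No difference of these genes passed the adjusted test in edgeR. Ier2, Hey1, C1qtnf3 and Adam21 were named for a small p at 7 weeks, and Hspa5 also lay lower there without overlap. The same 7-week values enter the differences, which such a choice can enlarge. The p-values of these differences are therefore not an independent test.

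Lists that lay away from 0 at 7 weeks had medians of the other sign at 12 weeks in several cases. Heat-shock genes went from −0.28 to 0.65, the unfolded protein response from −0.21 to 0.28, ribosomal proteins from −0.18 to 0.13, microglia from 0.95 to −0.71, endothelium from −0.27 to 0.32 and class II antigen presentation from 0.58 to −0.45. Single libraries of 12 weeks weighed on these values. Heat-shock genes summed to 12750 CPM in synuclein replicate 1 of 12 weeks against 8048 and 6046 in the other synuclein libraries and 5720 to 5965 in saline, and their median without it was 0.31. Synuclein replicate 2 of 12 weeks had 17409 genes with a fragment against 19960 to 21135 in the others of that time. Without it the medians were 0.14 for the unfolded protein response, 0.005 for ribosomal proteins, −0.31 for microglia and −0.08 for class II genes. Leaving out each library of 12 weeks in turn, the unfolded protein response ran from 0.14 to 0.37, ribosomal proteins from 0.005 to 0.32, microglia from −1.14 to −0.15, endothelium from 0.20 to 0.54 and class II genes from −0.84 to −0.08. Cholesterol and myelin lipid synthesis went from 0.14 to −0.14, with 8 genes higher and 17 lower at 12 weeks, though that median was 0.08 without saline replicate 1 of 12 weeks. Within it Dhcr7, at 0.33, Mvd, at 0.53, and Mvk, at 0.54, kept their sign, and Sqle, at −0.21, did not.

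Of the 285 genes at an unadjusted p under 0.05 at 7 weeks, 106 (37.2%) had the same sign at 12 weeks, against 44.5% of all 17380 genes and 36.4% of the 2158 genes above 100 CPM. Across all 17380 genes, which are not independent replicates, the folds of both times had a Pearson r of −0.10. The differences of the list medians between the times were not tested.

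**Figure D5:**
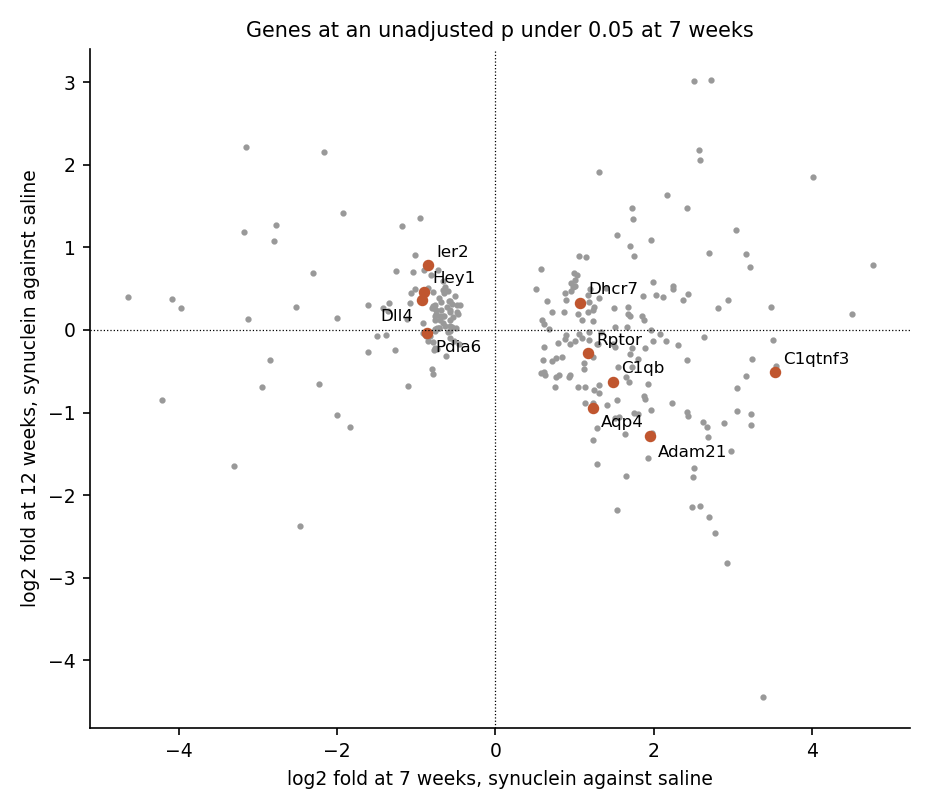
Log2 fold of synuclein against saline at 7 weeks (x axis) and at 12 weeks (y axis) for 279 of the 285 genes at an unadjusted p under 0.05 at 7 weeks; 6 genes with a group at 0 in all libraries are left out, and 10 genes named in the text are in colour. The points spread over all 4 quadrants, with 104 of 279 on the same side of 0 at both times.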

How the data were processed

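RNA of sorted midbrain cells was sequenced in 12 libraries, and the 6 of 7 weeks were compared. Per the submitters' processing notes, the tools named are TopHat2 2.0.13, Bowtie2 2.2.3 and Cufflinks 2.2.1. The authors deposited estimated counts and FPKM for 24346 genes, with 1 value per library. No source used here names the genome build. Coordinates are as deposited, with starts counted from 1, and of 17879 genes alone at their locus and found in RefSeq for GRCm38, 82.5% had both ends within 1000 bases. The deposited estimated counts were scaled per library, since 98.8% to 98.9% of values were whole multiples, within 0.02 fragments, of 1 step per library between 0.685 and 1.30. Dividing by the step gave the assigned fragments. With 3 libraries a group, a log2 fold had the standard errors given in the text.

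Counts were rounded and tested in edgeR 4.0.16 (R 4.3.3) with filterByExpr, TMM scaling and a quasi-likelihood fit of 4 group means to the 12 libraries together (residual degrees of freedom 8). The p-values were adjusted by Benjamini-Hochberg across 17380 genes, at a threshold of 0.05. CPM are TMM-scaled. Alternatives used DESeq2 1.42.0, limma 3.58.1 on counts and on log2 FPKM, other scalings and filters, and each library of 7 weeks left out. Leaving out each library of 12 weeks was added after seeing the data. The procedure was tested on simulated data. Counting was not stated to use strand, so genes that share a locus cannot be told apart. Named genes were the 12 with the smallest p in each direction among annotated genes whose groups did not overlap (models under 200 bases left out), 13 dopaminergic, synuclein and fibril genes, and per list the 2 with the smallest p and the 2 with the highest CPM. List members without overlap, those beside a promoter site and a few more, such as Gfap, were added after their values were seen. The gene lists and the rule were chosen with earlier results of these data known. A few genes that the rule names are not reported here.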

Additional observations from a re-analysis of the deposited data

How the results depend on the processing

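The count of genes called at 7 weeks was 0 in the edgeR fit and under 20 of 21 alternatives, and without each library of 12 weeks (added after seeing the data). Without saline replicate 2 it was 1, so the range over single libraries left out was 0 to 1. The gene called was Tnfsf13 (adjusted p = 0.0123 in edgeR), with 0, 88 and 0 fragments in saline and 44, 134 and 40 after synuclein, so that leaving out that library left saline at 0. The 285 genes at an unadjusted p under 0.05 became 444 with no filter on low counts, 436 from the 7-week libraries alone and 663 without replicates 1 and 2 of synuclein at 12 weeks, and 217 to 392 with single libraries of 7 weeks left out. With single libraries of 12 weeks left out it was 252 to 498, the latter without synuclein replicate 2. The causes were not tested. The difference between the times, with 0 genes called, had 1 gene called by limma on log2(FPKM + 0.1), Rpl26 (adjusted p = 0.0388), and 1 on log2(FPKM + 1), Olfr76 (adjusted p = 0.0271), and 0 with each single library of either time left out.

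With the replicate number as a replicate block within each time, 0 genes were called and 244 had an unadjusted p under 0.05. Samples sharing a number did not deviate together, with correlations of 0.073, −0.013 and −0.06 over the 3 pairs at 7 weeks, and not every sample correlated best with its own number, so the numbers were not taken as pairs.

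Of 290 genes followed through 21 alternatives, 212 kept the sign of the fold and 78 did not, and of 59 list medians 23 kept it and 36 did not. Library totals moved the median fold of all genes by 0.08 on the log2 scale and upper quartile scaling by 0.05. Depth limits genes under a few CPM most, where a single fragment moves the value.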

Other observations

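Ion channels of pacemaking neurons lay higher for 11 of 16 genes. Abcc8, the regulatory subunit of the ATP-sensitive potassium channel, measured 0.59, 1.94 and 2.95 CPM in saline and 7.06, 4.595 and 3.34 after synuclein, a log2 fold of 1.44 ± 0.82. Scn2a1, a sodium channel, was at 0.58 ± 0.61, and Cacna1c, an L-type calcium channel which shares its locus entry with others, lay lower at −0.30 ± 0.56. The list's median was 0.15 and became −0.04 without saline replicate 3. Nedd4l, a ubiquitin ligase of channels, measured 68.26, 57.52 and 60.17 CPM in saline and 78.30, 81.10 and 85.66 after synuclein, a log2 fold of 0.40 ± 0.24, and −0.93 at 12 weeks (unadjusted p of the difference 0.000974, not past the adjusted threshold in edgeR). Nedd4l lay higher without overlap at 7 weeks, and those values enter the difference, so its p is not an independent test. It shares its locus entry with 5 other genes.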
